A study of Mus musculus with 3 samples.

Results

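The genes described here are the nuclear-encoded subunits and assembly factors of the respiratory chain and of ATP synthase, in C2C12 cells, a mouse myoblast line that forms myotubes at low serum and osteoblast-like cells under bone morphogenetic protein 2 (BMP2). They were chosen by symbol: those that start with Nduf, Sdh followed by a to d, Uqcr, Cox followed by a digit, or Atp5. Of 22705 genes named in the files, 107 have such a symbol. A level of 1 FPKM or more in any library was reached by 100 of them, and 99 also have a RefSeq transcript of at least 300 nt and were compared, among 11461 genes compared in all. FPKM counts fragments per length of the transcript and per depth of the library. Levels of different genes were set side by side on this scale, and its accuracy for short transcripts was not checked.

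Polyadenylated RNA of the line was sequenced in 3 libraries, 1 per group. The first holds mock-transfected cells grown with 20% fetal bovine serum, without BMP2 (mock). The second is labelled shKSRP, for a knockdown of the KH-type splicing regulatory protein KSRP, an RNA-binding protein of mRNA decay and microRNA maturation, in the same medium. The third came from mock-transfected cells in differentiation medium, which per the protocol holds 2% horse serum, with BMP2 at 100 to 300 ng/ml (DM + BMP2). The protocol names myogenic differentiation for this medium and osteoblastic differentiation for BMP2, so medium and BMP2 cannot be told apart in that library. The sources used here give neither the hairpin sequence nor the number of clones nor the duration of BMP2 treatment.

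Khsrp, the gene of KSRP, was at 31.4 FPKM in mock, 27.1 in DM + BMP2 and 28.4 in the library labelled shKSRP. The targeted transcript was thus about as high in the labelled knockdown as in the BMP2 library, and each direction given below for that library rests on its label. Of the 6 myoblast markers, Des was at 280, 185 and 218 FPKM and Myod1 at 30.7, 34.8 and 17.3, in the order mock, shKSRP, DM + BMP2. Myf5, a myogenic regulator of proliferating myoblasts, was at 7.75, 48.4 and 9.09. Cdh15, a myoblast cadherin, was at 38.3, 31.1 and 5.02, Itga7 at 90.1, 67.0 and 35.9, and Pax7, a satellite cell factor, at 0.12, 2.90 and 0.46. These markers were highest in different libraries, and 4 of the 6 were lower in DM + BMP2 than in mock. Of 11 markers of epithelial, blood, endothelial, fat and neural cells, 9 stayed under 1 FPKM in all 3 libraries. The others were Cd14, at 11.9, 4.61 and 10.5 FPKM, and Map2, at 1.02 FPKM at most. The part of other cells in the results below was not tested. With bulk RNA, a change in the share of a cell type and a change of RNA per cell cannot be told apart.

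The respiratory chain is built in the inner mitochondrial membrane. Complex I takes electrons from NADH and complex II from succinate, complex III passes them from ubiquinol to cytochrome c, and complex IV passes them on to oxygen. The proton gradient that complexes I, III and IV make drives ATP synthase, complex V. Complexes I, III, IV and V mix subunits of both genomes, while all subunits of complex II are encoded in the nucleus. Assembly factors insert cofactors and join the modules without staying in the mature complex. In muscle, the chain supplies most of the ATP of resting and sustained work, and several complex IV subunits have a heart and skeletal muscle isoform beside the common one. Transcripts of the mitochondrial genome were not analysed here.

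Nuclear respiratory factor 1 (NRF1) and oestrogen-related receptors (ERR) are known activators of respiratory chain genes. Their letters were looked for in the RefSeq promoter windows of GRCm38.p6, from 250 bases before to 50 bases after the annotated start, which 82 of the 99 genes have. These 5 stretches are shown because they place such letters before the start in genes of 4 complexes described below. Each is the last 170 bases before the start, 5′ to 3′ on the gene's strand. Capitals mark NRF1 letters (GCGCA, any base, then GCGC, on either strand) or, in Atp5g3, ERR letters (TCAAGGTCA on either strand).

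Ndufa11, complex I, chr17:56717592-56717761, plus strand: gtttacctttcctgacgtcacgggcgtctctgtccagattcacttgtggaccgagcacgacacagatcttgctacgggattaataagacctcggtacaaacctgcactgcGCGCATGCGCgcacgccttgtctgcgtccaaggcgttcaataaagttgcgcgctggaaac
Sdha, complex II, chr13:74350241-74350410, minus strand: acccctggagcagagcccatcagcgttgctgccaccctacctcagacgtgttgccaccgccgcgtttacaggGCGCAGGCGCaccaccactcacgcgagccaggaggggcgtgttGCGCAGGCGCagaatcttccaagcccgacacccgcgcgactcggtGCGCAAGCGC
Cox6a1, complex IV, chr5:115348959-115349128, minus strand: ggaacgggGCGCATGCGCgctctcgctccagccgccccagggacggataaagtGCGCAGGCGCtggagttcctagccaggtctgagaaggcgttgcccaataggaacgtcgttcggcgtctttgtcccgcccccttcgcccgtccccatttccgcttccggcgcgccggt
Atp5g2, complex V, chr15:102671048-102671217, minus strand: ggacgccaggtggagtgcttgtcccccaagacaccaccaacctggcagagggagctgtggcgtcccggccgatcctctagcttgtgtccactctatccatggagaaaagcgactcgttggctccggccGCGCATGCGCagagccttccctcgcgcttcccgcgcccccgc
Atp5g3, complex V, chr2:73911327-73911496, minus strand: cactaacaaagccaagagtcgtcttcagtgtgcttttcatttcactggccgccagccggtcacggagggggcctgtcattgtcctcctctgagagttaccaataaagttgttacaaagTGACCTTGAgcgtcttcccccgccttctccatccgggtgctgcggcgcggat

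Sdha, the flavoprotein of succinate dehydrogenase, held the NRF1 letters 3 times, and Cox6a1, the common isoform of a complex IV subunit, 2 times. NRF1 letters stood in at least 1 window of 20 of the 82 genes (24.4%), against 12.03% of 8979 other genes compared and 5.19% of all 27025 genes with a window. The letters of YY1 (AAGATGGCG) stood in 11.0% of the 82 genes and 3.70% of the other genes compared. Those of ERR stood in 2 of the 82 genes, Atp5g3 and Sdhd (2.44% against 0.245%). ETS letters (CCGGAAGT) were found in 11.0% against 9.66%, and the cyclic AMP response element (TGACGTCA) in 4.88% against 3.82%. The GC box (GGGCGG) was the one with the lower share, in 41 of the 82 genes against 70.8%. All were searched on both strands, and the shares describe letters, not binding.

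Members under 600 nt had a higher median level than other genes of that length in each library. In mock, the median level of the 77 subunit genes compared was 225 FPKM, and that of the 21 assembly factor genes 20.8 FPKM. Of members with a transcript under 600 nt, the median was 350 FPKM in mock, 244 in shKSRP and 213 in DM + BMP2, against 72.7, 42.1 and 40.9 FPKM for 196 other genes of that length. Together the 99 genes made up 3.68% of the summed FPKM of all genes compared in mock, 3.36% in shKSRP and 3.12% in DM + BMP2. The summed FPKM itself was 675439, 531027 and 561443.

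Mock held the highest level for 77 of the 99 genes, shKSRP for 17 and DM + BMP2 for 5. How often mock was highest among all genes was not counted. Under 600 nt, 36 of 38 members were lower in shKSRP than in mock, and 37 in DM + BMP2. Of 196 other genes of that length, 157 and 150 were lower. By complex, mock was highest for 29 of 36 complex I subunits, 3 of 4 complex II subunits, 6 of 8 complex III subunits, 10 of 13 complex IV subunits and 14 of 16 ATP synthase subunits. The plot of subunit levels by complex shows how narrow most of these gaps were beside the range between genes. A gene's FPKM rises where fragments are given to a short assembled transcript, so a fixed gene length was used as well. It was FPKM times transcript length, summed and divided by the longest RefSeq length. It takes FPKM as fragments per full transcript length, which was not checked, so short assembled transcripts may still weigh too much. On that scale mock was highest for 81 genes, shKSRP for 16 and DM + BMP2 for 2, and the highest library differed for 11 of the 99. Since each group is 1 library, no spread between replicates can be set against any difference below, and no test was made. Values after ± are half-widths from the authors' 95% intervals per transcript, which cover counting and assignment error within a library only. For a gene with several transcripts, the squares were summed and the root taken, as if the transcripts were independent. For a log2 ratio, the half-width was derived from those of both levels.

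**Figure D1:**
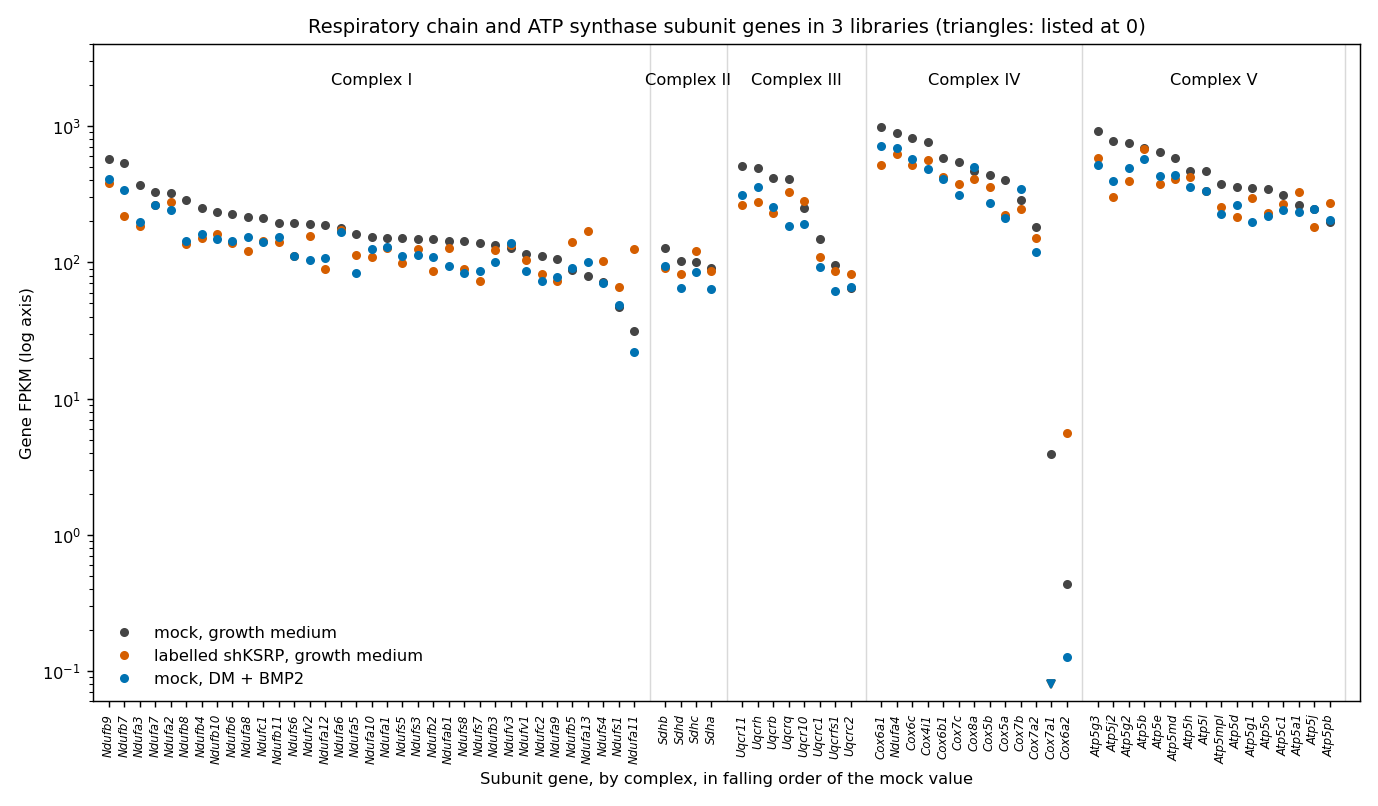
Level of subunit genes compared, in FPKM on a log axis, in the 3 libraries, grouped by complex and ordered by the mock value. Most genes lie between 50 and 1000 FPKM with the mock point on top; Cox6a2 and Cox7a1, the muscle isoforms, lie far below, and the triangle marks Cox7a1 listed at 0 in both other libraries.

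Against mock, the members lay lower in both other libraries, and so did other genes of their length. In shKSRP the median log2 ratio of FPKM + 1 over the 99 genes was -0.46, with 79 genes below 0, while all genes had a median of -0.02 and 50.9% below 0. In DM + BMP2 the members' median was -0.48, with 88 genes below 0, and that of all genes 0.03, with 47.2% below 0. Both comparisons share the mock library, so their likeness is no second observation.

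Transcript length moved with these ratios. Each member was therefore set against the median ratio of the 200 other genes nearest to it in length. For shKSRP the median of these same-length values was -0.56, and members exceeded them by a median of 0.05, with 56 of 99 above (5754 of all 11461 genes). The sign of that median was not stable: it was -0.0552 with a pseudocount of 5 and -0.23 with no filter on low levels. For DM + BMP2 the same-length median was -0.40, and members stood at a median of -0.15 from it, with 59 of 99 below (5734 of all 11461 genes). Under 600 nt, 38 members had a median log2 ratio of -0.58 in shKSRP and other genes -0.57, and in DM + BMP2 the medians were -0.54 and -0.52. The part of RNA integrity, fragment selection or library making in this trend was not tested.

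**Figure D2:**
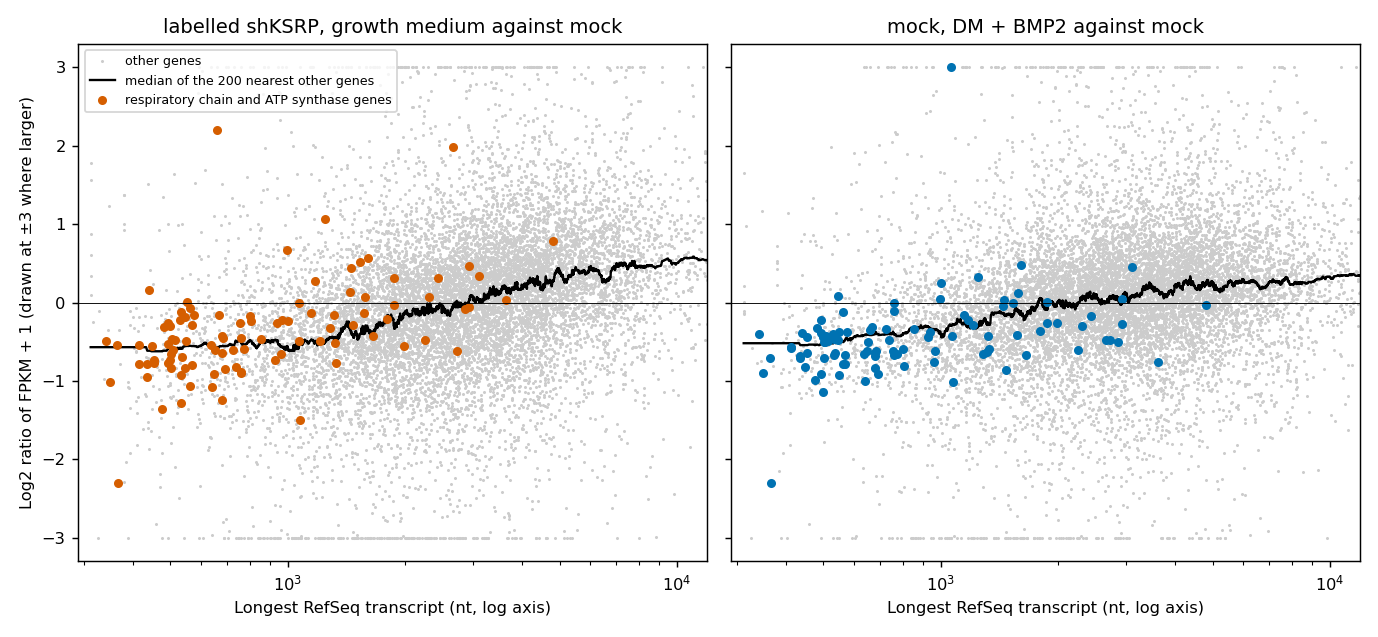
Log2 ratio of FPKM + 1 against mock (vertical axis) by length of the longest RefSeq transcript in nt (log axis), for shKSRP (left) and DM + BMP2 (right). Grey points are other genes, the line is the median of the 200 nearest other genes, and coloured points are the 99 members, most of which lie at short lengths where the line is near -0.5; values past 3, Ndufaf3 among them, are drawn at 3.

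Longer members are fewer. The 24 members of 1000 to under 2000 nt had a median log2 ratio of -0.15 in shKSRP, where other genes of that length had -0.37, and 18 of the 24 lay above their same-length value. In DM + BMP2 the same members had -0.27 and other genes -0.15, and 12 of the 24 lay above their same-length value. The 11 members of 2000 nt or more had a median of 0.07 in shKSRP and -0.30 in DM + BMP2, against 0.15 and 0.14 for other genes. Relative to genes of the same length, their median was 0.21 in shKSRP, with 6 of 11 above, and -0.35 in DM + BMP2, with 9 of 11 below. Length classes were not recomputed over a fixed gene length. On that scale Ndufa11, of the longest class, went from a log2 ratio of 1.98 to -0.18 in shKSRP. Sdha was among members of that class that then lay above mock, and Ndufaf4 among those that lay below.

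Scaling bears on every direction given against mock. Dividing each library by its summed FPKM moved the median of all genes to 0.27 in shKSRP and 0.26 in DM + BMP2, and the members' medians to -0.11 and -0.22. Then 54 of the 99 genes lay below 0 in shKSRP, with 36.0% of all genes, and 25 members changed sign. In DM + BMP2, 77 members stayed below 0, with 33.7% of all genes. One factor per library moves all genes nearly alike, so the distance of the members from the median of all genes is not tested by it.

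A member was called where its log2 ratio reached 1 in size, that is 2-fold. By this rule 3 members were higher in shKSRP than in mock, where 11.0% of all genes were, and 8 were lower, where 12.9% of all genes were. With libraries divided by their summed FPKM those shares of all genes are 17.7% and 8.22%, a scale on which the member counts just given were not made. In DM + BMP2, 1 member was higher (9.21% of all genes) and 4 were lower (8.94%). Without rescaling, shares of members past 2-fold thus did not exceed those of all genes in any of these directions. Members passed the FPKM limit in at least 1 library, and 3 passed in a single library: Cox6a2, Cox7a1 and Ndufaf3. These 3 had to differ. Without them and the pseudogene, 2 members were higher and 7 lower in shKSRP, and none was higher and 3 were lower in DM + BMP2.

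Complex I, NADH:ubiquinone oxidoreductase, is the largest complex. The median log2 ratio of its 36 subunit genes was -0.48 in shKSRP and -0.46 in DM + BMP2, and relative to genes of the same length 0.05 and -0.09. In shKSRP, 2 of the 36 subunits were past 2-fold higher and 4 lower, against 11.0% and 12.9% of all genes. Of the electron-carrying core, Ndufs1, the iron-sulphur subunit of the NADH arm, was at 47.2 ± 1.07 FPKM in mock, 65.7 ± 1.21 in shKSRP and 48.9 ± 1.11 in DM + BMP2. Ndufv1, which binds NADH and flavin, was at 115, 104 and 86.0 FPKM. Thus shKSRP was the highest library for Ndufs1, and mock for Ndufv1.

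Ndufb7 (chr8:86090657-86095522 in mm9, as all positions of the files), a subunit of the membrane arm, had the most negative ratio among the complex I subunits in shKSRP. It was at 536 ± 9.48 FPKM in mock, 220 ± 5.81 in shKSRP and 337 ± 7.60 in DM + BMP2. Its log2 ratio to mock was -1.28 ± 0.05 in shKSRP and -0.67 in DM + BMP2. Mock was highest, and shKSRP lay at 41.1% of it.

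Ndufb8 (chr19:44624744-44629905), also of the membrane arm, was at 287 ± 6.09 FPKM in mock, 136 ± 4.09 in shKSRP and 143 ± 4.43 in DM + BMP2. It was the subunit of complex I past 2-fold in both comparisons, with a log2 ratio of -1.07 in shKSRP and, at the limit, 49.8% of the mock level in DM + BMP2. Its locus is shared with another gene. Ndufa12 (chr10:93661754-93683693), an accessory subunit, was at 188 ± 5.40, 89.3 ± 3.56 and 108 ± 4.16 FPKM, with log2 ratios of -1.06 and -0.79. All of the FPKM of Ndufb7, Ndufb8 and Ndufa12 was on their RefSeq transcripts in each library.

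Ndufa3 (chr7:3568975-3571763), an accessory subunit of the membrane arm, was at 371 ± 19.8 FPKM in mock, 183 ± 9.80 in shKSRP and 198 ± 12.6 in DM + BMP2. Its log2 ratio in shKSRP was -1.01, and -0.74 over a fixed gene length. Both its RefSeq transcript and an assembled one carried fragments in each library.

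Ndufa11 (chr17:56857185-56863671), a membrane-arm subunit, had most of its FPKM in shKSRP on short assembled transcripts. It was at 31.1 ± 0.87 FPKM in mock, 126 ± 6.11 in shKSRP and 22.0 ± 0.74 in DM + BMP2, a log2 ratio of 1.98 in shKSRP. In shKSRP, 11.1 FPKM lay on the RefSeq transcript of 2661 nt, and 56.4 and 58.3 FPKM on assembled transcripts of 409 and 344 nt at chr17:56857185-56861459. Neither other library had an assembled transcript of this gene. Over a fixed gene length, Ndufa11 was at 31.1, 27.3 and 22.0 FPKM and the log2 ratio in shKSRP was -0.18, and on the RefSeq transcript alone it was -1.41. The higher value in shKSRP thus lay on its short assembled transcripts, and the value over the whole gene was not higher.

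Ndufa13 (chr8:72418081-72426457), also known as GRIM-19, was at 80.0 ± 2.12 FPKM in mock, 169 ± 6.21 in shKSRP and 100 ± 3.92 in DM + BMP2. Its log2 ratio in shKSRP was 1.07, with 115 FPKM on an assembled transcript of 404 nt. The ratio was 0.19 over a fixed gene length and -0.56 on the RefSeq transcript alone, so its direction was not settled. Ndufb5 and Ndufs4 had smaller differences of the same kind: their log2 ratios in shKSRP were 0.67 and 0.51, and 0.23 and -0.41 over a fixed gene length. Over that length no complex I subunit was 2-fold higher in shKSRP, and 3 were lower. Of all 99 members, 1 was then higher and 7 were lower in shKSRP (10.9% of all genes in each direction), and 1 was higher and 3 were lower in DM + BMP2 (8.52% and 7.22%). Each of the higher ones, Cox6a2 and Ndufaf3, and Cox7a1 among the lower, passed the FPKM limit in a single library.

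**Figure D3:**
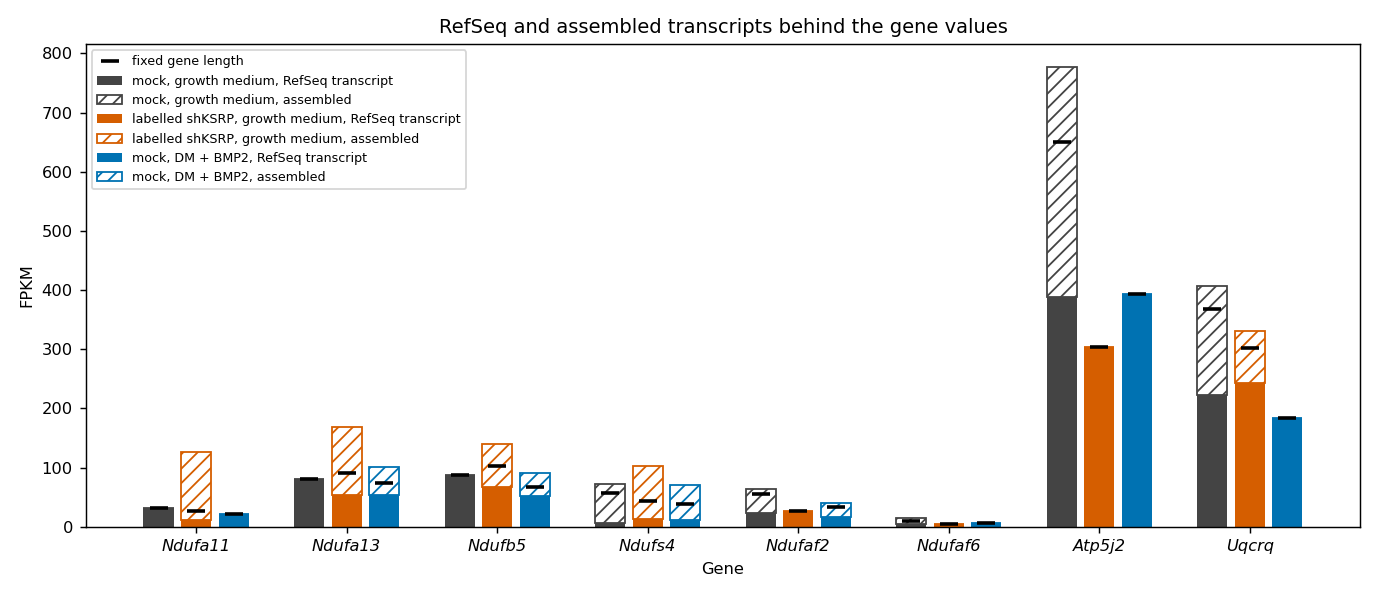
FPKM on RefSeq transcripts (solid) and on transcripts assembled in that library (hatched) for 8 genes in the 3 libraries, with the value over a fixed gene length as a black mark. In Ndufa11 the shKSRP bar reaches 126 FPKM while its mark stands at 27.3, and in Atp5j2 the mock bar of 777 FPKM is split between a RefSeq and an assembled transcript.

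The 8 assembly factors of complex I had median log2 ratios of -0.31 in shKSRP and -0.58 in DM + BMP2, and relative to genes of the same length of -0.18 and -0.37. Ndufaf2 (chr13:108842783-108948819), a chaperone of late assembly related to Ndufa12, was at 64.3 ± 3.64 FPKM in mock, 26.5 ± 1.70 in shKSRP and 39.8 ± 2.96 in DM + BMP2. Its log2 ratio in shKSRP was -1.25, and -1.02 over a fixed gene length, but 0.14 on the RefSeq transcript, which held 23.9 and 26.5 FPKM. The difference lay on an assembled transcript of 521 nt that mock had and shKSRP lacked.

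Ndufaf6 (chr4:10978195-11003351), an early-acting assembly factor, was at 14.1 ± 1.50 FPKM in mock, 4.34 ± 0.51 in shKSRP and 6.48 ± 0.67 in DM + BMP2. Its log2 ratios were -1.50 and -1.02, and -1.11 and -0.62 over a fixed gene length. On the RefSeq transcript they were -0.13 and 0.36, since 9.28 of the 14.1 FPKM in mock lay on assembled transcripts. Ndufaf3 (chr9:108468196-108469673), which acts together with Ndufaf4 on the ubiquinone-binding part, was at 12.4 ± 0.93 FPKM in DM + BMP2 and listed at 0 in both other libraries, so no fold can be given. Ndufaf1, which acts on the membrane arm, was at 19.6, 21.6 and 19.0 FPKM, and Ndufaf4 at 10.1, 10.3 and 5.56 FPKM. Over a fixed gene length Ndufaf4 was at 10.1, 5.28 and 5.56 FPKM, so that shKSRP did not equal mock on that scale.

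The pseudogene Ndufs5-ps, a near copy of the iron-sulphur fraction subunit gene Ndufs5, came under the symbol rule too. It was listed at 118, 70.8 and 86.5 FPKM beside 151, 99.1 and 112 FPKM for Ndufs5. The sources used here do not say how fragments were divided between the copies, so both values are uncertain.

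Complex II, succinate dehydrogenase, links the chain to the tricarboxylic acid cycle, and none of its 4 subunits passed 2-fold. Sdha, the flavoprotein, was at 91.1 ± 2.39 FPKM in mock, 86.1 ± 1.33 in shKSRP and 64.2 ± 1.22 in DM + BMP2. In mock, 51.8 FPKM of Sdha lay on assembled transcripts, and over a fixed gene length the values were 59.8, 86.1 and 64.2 FPKM, which puts mock lowest. Its direction was thus not settled. Sdhb, the iron-sulphur subunit, was at 127 ± 2.93, 90.4 ± 2.35 and 94.2 ± 2.55 FPKM, and mock was highest.

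The membrane anchors of complex II differed in order. Sdhc was at 100 ± 2.46, 122 ± 2.58 and 85.5 ± 2.30 FPKM, with shKSRP highest. Sdhd was at 103 ± 2.37, 82.1 ± 2.02 and 64.7 ± 1.90 FPKM, with DM + BMP2 lowest. Median ratios of the 4 subunits relative to genes of the same length were 0.07 in shKSRP and -0.29 in DM + BMP2, and 0.30 and -0.09 over a fixed gene length. The 4 assembly factors stood at 0.37 and 0.11. Of these, Sdhaf2, which helps to attach flavin to Sdha, was at 22.4, 28.6 and 31.1 FPKM (over a fixed gene length shKSRP was lowest, at 18.9, and DM + BMP2 at 21.3), and Sdhaf1, which acts on the iron-sulphur subunit, at 11.7, 9.83 and 7.28 FPKM.

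Complex III, ubiquinol:cytochrome c oxidoreductase, had median log2 ratios of -0.36 in shKSRP and -0.65 in DM + BMP2 over its 8 subunits. Relative to genes of the same length they were 0.12 and -0.18, and 0.24 and -0.14 over a fixed gene length. Uqcrq (chr11:53242450-53244333), a small subunit near the ubiquinone sites, was the one past 2-fold. It was at 407 ± 11.2 FPKM in mock, 331 ± 9.42 in shKSRP and 184 ± 5.89 in DM + BMP2, a log2 ratio of -1.15 in the last, and just past the limit over a fixed gene length. On the RefSeq transcript alone the ratio was -0.27, since 185 FPKM in mock lay on an assembled transcript of 394 nt. Its ratio in shKSRP was -0.30.

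The core proteins and the Rieske protein of complex III stayed within 2-fold. Uqcrc1 was at 148, 110 and 92.8 FPKM and Uqcrc2 at 65.4, 81.5 and 65.8 FPKM. Uqcrfs1, the Rieske iron-sulphur protein, was at 95.9, 86.0 and 61.7 FPKM. Uqcrc1 was highest in mock and Uqcrc2 in shKSRP, though both belong to the same part of the complex. The short subunits Uqcr11 (513, 265 and 312 FPKM) and Uqcrh (493, 275 and 354 FPKM), the hinge protein, were both highest in mock. Uqcr10 was at 252, 283 and 192 FPKM, with a log2 ratio of 0.16 in shKSRP.

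Complex IV, cytochrome c oxidase, had the highest single level of the 99 genes. Cox6a1 (chr5:115795663-115798964) was at 988 ± 12.9 FPKM in mock, 520 ± 8.93 in shKSRP and 713 ± 11.1 in DM + BMP2, with log2 ratios of -0.93 and -0.47. Cox4i1, the common isoform of the largest nuclear-encoded subunit, was at 760 ± 9.53, 565 ± 7.85 and 485 ± 7.71 FPKM. Cox5a, a subunit on the matrix side, was at 403 ± 6.85, 223 ± 4.87 and 213 ± 5.04 FPKM. Mock was highest for all 3 genes. Over the 13 subunits compared, the median log2 ratio was -0.46 in shKSRP and -0.51 in DM + BMP2, and 0.13 and 0.01 relative to genes of the same length.

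The isoforms of complex IV with narrow expression were low or listed at 0 beside their common partners. Cox6a2 (chr7:135348949-135349880), the heart and skeletal muscle partner of Cox6a1, was at 0.44 ± 0.23 FPKM in mock, 5.58 ± 0.80 in shKSRP and 0.13 ± 0.13 in DM + BMP2, a log2 ratio of 2.20 in shKSRP. Only the shKSRP library was above 1 FPKM, and even there Cox6a1 was at 520. Cox7a1 (chr7:30969190-30971049), the muscle partner of Cox7a2, was at 3.92 ± 1.11 FPKM in mock and listed at 0 in both others, at a locus shared with another gene. Cox7a2 was at 183, 152 and 118 FPKM.

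Of the 7 members by symbol that did not reach 1 FPKM, Cox8b, another muscle isoform, stayed just under the limit, at 0.16, 0.94 and 0.24 FPKM, beside Cox8a at 468, 411 and 497 FPKM (468, 411 and 394 over a fixed gene length, with DM + BMP2 lowest). Cox7a1, with 3.92 FPKM in mock, had the lowest peak of those above the limit. Cox4i2, the lung isoform of Cox4i1, stayed at 0.22 FPKM or less, and Cox6b2, a testis isoform, at 0.30 FPKM or less. Cox7b2 was at 0.04 FPKM at most. Cox8c, Cox20 and Ndufa4l2 were listed at 0 in all libraries, Cox20 at a shared locus. Ndufa4, a complex IV subunit despite its symbol, was at 895, 619 and 685 FPKM.

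None of the 9 assembly factors of complex IV passed 2-fold. Their median ratios relative to genes of the same length were -0.17 in shKSRP and -0.25 in DM + BMP2. Cox17, a copper chaperone, was at 191, 110 and 118 FPKM, and Cox19, which acts in the same copper route, at 61.5, 32.8 and 56.8 FPKM. Cox15, which makes haem A, was at 4.80, 8.96 and 4.70 FPKM, the one of the 9 with shKSRP highest. Cox7a2l, which helps to join complexes III and IV, was at 168, 153 and 151 FPKM.

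ATP synthase, complex V, had median log2 ratios of -0.49 in shKSRP and -0.47 in DM + BMP2 over 16 subunits, and relative to genes of the same length of 0.04 and -0.19. Of the catalytic head, Atp5a1 was at 264 ± 2.66, 328 ± 2.83 and 233 ± 2.54 FPKM, and Atp5b at 685 ± 4.94, 673 ± 4.67 and 571 ± 4.57 FPKM. Atp5c1, the central stalk, was at 311 ± 5.13, 269 ± 4.77 and 242 ± 4.71 FPKM. DM + BMP2 was lowest for all 3 genes, and only Atp5a1 was highest in shKSRP.

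The membrane ring subunit c is encoded by 3 genes that yield the same mature protein. Atp5g3 was at 922, 587 and 515 FPKM, Atp5g2 at 749, 398 and 490 FPKM, and Atp5g1 at 348, 296 and 197 FPKM. Mock was highest for all 3, and the order of the genes by level was the same in each library. Atp5g1 lies at a shared locus.

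Atp5j2 (chr5:145944575-145952461), subunit f of the membrane part, was the ATP synthase gene past 2-fold. It was at 777 ± 17.8 FPKM in mock, 304 ± 7.42 in shKSRP and 393 ± 8.92 in DM + BMP2, with log2 ratios of -1.35 and -0.98. In mock, 389 FPKM lay on an assembled transcript of 322 nt, and the RefSeq transcript held 388, 304 and 393 FPKM. The ratio in shKSRP was -1.10 over a fixed gene length and -0.35 on the RefSeq transcript. Atp5pb, of the peripheral stalk, was at 199, 271 and 204 FPKM, and its RefSeq transcript was listed at 0 in shKSRP and DM + BMP2, where assembled transcripts carried the gene's value. Over a fixed gene length it was at 199, 198 and 145 FPKM. Atp5k, subunit e, has a transcript of 292 nt and was not compared. It was at 535, 321 and 373 FPKM.

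**Figure D4:**
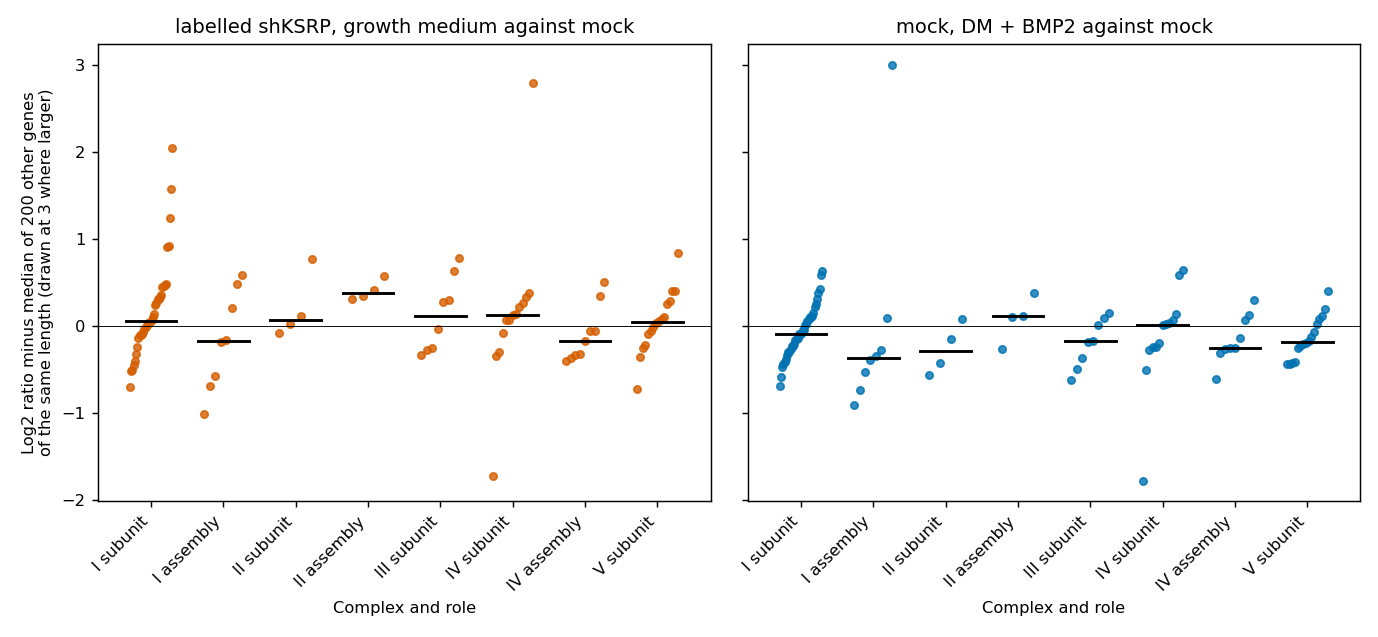
Log2 ratio of FPKM + 1 against mock minus the median of the 200 other genes nearest in length (vertical axis), for each of the genes by complex and role, in shKSRP (left) and DM + BMP2 (right). Points are genes, with the pseudogene left out, and bars are medians, which lie between -0.18 and 0.37 on the left and between -0.37 and 0.11 on the right; Ndufaf3 is drawn at 3 on the right though mock lists it at 0.

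The library labelled shKSRP was also set against DM + BMP2. The members' median log2 ratio was 0.05, with 43 of 99 below 0 (51.3% of all genes), and 0.18 relative to genes of the same length, with 65 of 99 above their same-length value (5769 of all 11461 genes). Past 2-fold were 2 higher members, Ndufa11 and Cox6a2, where 6.06% of all genes were higher, and 1 lower member, Ndufaf3, where 8.66% were lower. Cox6a2 and Ndufaf3 each passed the FPKM limit in a single library and had to differ, which leaves 1 higher member and no lower one. The log2 ratio of Ndufa11, 2.46, was 0.30 over a fixed gene length and -0.93 on RefSeq transcripts alone. Over a fixed gene length Cox6a2 and Ndufaf3 alone were past 2-fold, where 5.81% of all genes were higher and 7.63% lower. By complex, medians relative to genes of the same length were 0.11 for complex I subunits (0.19 over a fixed gene length), 0.47 for complex II, 0.39 for complex III, 0.14 for complex IV and 0.22 for ATP synthase. Uqcrq, with a log2 ratio of 0.85, was the largest difference among complex III subunits.

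Ratios were also set side by side for genes with and without the NRF1 letters, with no test. The 20 genes with them had a median log2 ratio of -0.46 in shKSRP and the 62 without -0.47. In DM + BMP2 the medians were -0.49 and -0.43, and in shKSRP against DM + BMP2 0.16 and 0.01. Relative to genes of the same length, they were -0.05 and 0.07 in shKSRP, -0.26 and -0.14 in DM + BMP2, and 0.30 and 0.12 in shKSRP against DM + BMP2. Nrf1 itself was at 10.8, 7.85 and 8.03 FPKM.

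Among 32 other electron carriers and assembly genes compared, none was past 2-fold higher in either comparison with mock, 5 were lower in shKSRP (12.9% of all genes) and 1 in DM + BMP2 (8.94%). Cycs, cytochrome c of somatic cells, was at 277 ± 6.46 FPKM in mock, 48.3 ± 0.96 in shKSRP and 174 ± 6.10 in DM + BMP2, and at 105, 48.3 and 50.2 FPKM over a fixed gene length. On either scale mock was highest, but the place of DM + BMP2 depended on the scale. Uqcc2, an assembly factor of complex III, was at 506, 213 and 301 FPKM. Cmc2, of complex IV, was at 58.0, 9.40 and 24.2 FPKM, and at 26.5, 9.54 and 10.9 FPKM over a fixed gene length. The other two in shKSRP were Higd1a and Ttc19, the latter listed at 0 there.

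Of 14 regulators of mitochondrial biogenesis compared, none was past 2-fold higher than mock, 2 were lower in shKSRP (12.9% of all genes) and 3 in DM + BMP2 (8.94%). Relative to genes of the same length, their median was -0.22 in shKSRP, with 11 of 14 below (5707 of all 11461 genes). In DM + BMP2 it was -0.44, with all 14 below (5734 of all 11461 genes). Tfam, which packages and transcribes mitochondrial DNA, was at 27.2 ± 1.18, 7.60 ± 0.33 and 9.48 ± 0.40 FPKM, and at 14.7, 7.60 and 9.48 FPKM over a fixed gene length, where it fell short of 2-fold in both. Tfb1m, a mitochondrial RNA methyltransferase, was listed at 0 outside mock. Esrra, one of the oestrogen-related receptors, was at 18.2, 20.6 and 0 FPKM, the last a listing at 0 at a shared locus. Ppargc1a, a coactivator of oxidative genes in muscle, stayed at 0.14 FPKM or less.

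The 14 tricarboxylic acid cycle genes had a median relative to genes of the same length of 0.41 in shKSRP and 0.01 in DM + BMP2, with Ogdh (22.8, 54.2 and 37.8 FPKM) past 2-fold higher in shKSRP. Over a fixed gene length Ogdh was at 22.8, 39.2 and 24.6 FPKM, short of 2-fold. Of 15 glycolysis genes, Eno1 and Ldha were past 2-fold lower in shKSRP and none was past 2-fold in DM + BMP2. For all genes, the shares in shKSRP were 11.0% higher and 12.9% lower, and in DM + BMP2 9.21% and 8.94%. The list's relative medians were -0.14 and -0.06. Of 78 mitochondrial ribosome genes, 5 were higher and 17 lower in shKSRP, and 2 higher and 11 lower in DM + BMP2, with relative medians of -0.10 and -0.28. Of 84 cytosolic ribosome genes, none was higher and 10 were lower in shKSRP, and 1 was higher and 14 lower in DM + BMP2, with relative medians of 0.04 and -0.31. In DM + BMP2 the respiratory chain genes, at -0.15, thus lay nearer to their same-length genes than either ribosome list under the main settings. With no filter on low levels they stood at -0.35, and the ribosome lists were not recomputed at that setting. No test of the difference between lists was possible with 1 library a group. The same-length values leave out respiratory chain genes but include the genes of both ribosome lists. The ribosome genes were therefore partly set against themselves, and the respiratory chain genes partly against ribosome genes.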

How the data were processed

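For each of the 3 libraries the authors deposited a transcript list with FPKM and the bounds of its 95% interval as text attributes, per the file headers. The deposited score per transcript was not used. Cufflinks 1.3.0, TopHat 1.4.1, Bowtie 0.12.7, CASAVA 1.8 and mm9 were used per the submitters' processing notes, which give no settings. Each list holds 28702 RefSeq transcripts, and 14761 to 17278 transcripts assembled from that library. Per the labels' protocols, fragments of 250 ± 25 bp and 18 PCR cycles were used, without molecular identifiers named.

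Accessions took symbols from a RefSeq table of GRCm38.p6 (27563), GENCODE M21 (166) or the name in the files (216), while 277 kept the accession. Gene FPKM was the sum over RefSeq transcripts and assembled transcripts of the same locus. In the 3 libraries, 11.7%, 16.0% and 15.1% of the members' summed FPKM was on assembled transcripts, and 16 of 99 members lie at loci shared between genes. Genes needed 1 FPKM in any library and a RefSeq transcript of 300 nt, and 1 gene that a library does not list was left out. The ratio was log2 of FPKM + 1, which understates changes of low genes, with no rescaling, and a call needed a log2 ratio of 1 in size. The same-length value was the median of the 200 nearest non-members in log length. It was tried on simulated data with a length trend but no dependence on level, so that trial does not cover effects of level. Named genes were those past 2-fold, those listed at 0 in a library, the highest and lowest ratio by complex and role, core subunits and tissue isoforms, and members named outside that rule, such as Ndufb5, Ndufs4 and Uqcr10, were chosen after their values were seen. Promoter windows are RefSeq's, with 1 or more windows a gene.

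The files give no counts. If interval widths of transcripts of 2000 nt and 5 FPKM or more cover counting error alone, they correspond to about 62.1, 68.5 and 60.4 M fragments in mock, shKSRP and DM + BMP2. For members at 10 FPKM or more (93, 91 and 90 of the 99), the median half-width was 2.65%, 2.85% and 3.10% of the level. With 1 library a group no test was made. The members and lists were chosen with earlier results of these data known. Python 3.11.15, pandas 2.3.3, numpy 2.4.6 and matplotlib 3.10.9 were used. Alternatives changed the pseudocount, filter, transcripts, scaling, loci and neighbours. The values of 1 gene are not reported here.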

Additional observations from a re-analysis of the deposited data

How the results depend on the processing

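No paired analysis was possible because each group has 1 library, and none could be left out. The fixed gene length, summed-FPKM scaling and the removal of single-library members and the pseudogene were chosen after seeing the data. RefSeq transcripts alone gave 19 members past 2-fold in shKSRP (11 in the report), 12 in DM + BMP2 (5) and 9 in shKSRP against DM + BMP2 (3). Of all genes, 18.1% were then higher and 14.0% lower in shKSRP, 14.5% and 11.3% in DM + BMP2, and 11.2% and 10.3% between them. The most abundant RefSeq transcript alone gave 19, 11 and 8. Shares of all genes were then 17.8% and 14.0%, 14.6% and 11.4%, and 10.9% and 10.2%. In DM + BMP2 the count was 2 with a pseudocount of 5 (4.71% of all genes higher, 5.48% lower) and with summed-FPKM scaling (13.3% and 6.36%). It was 3 without shared loci, with genes above 0 in all libraries, with subunits alone, and without single-library members and the pseudogene. There 7.65% to 9.22% of all genes were higher and 7.17% to 8.95% lower. Removal of single-library members and the pseudogene left 1 member in shKSRP against DM + BMP2 (6.05% and 8.65% of all genes). The members' median became -0.11 in shKSRP, -0.22 in DM + BMP2 and 0.13 between them with summed-FPKM scaling, -0.55 in DM + BMP2 with median scaling, and 0.11 in shKSRP against DM + BMP2 without shared loci.

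Relative to genes of the same length, the members' median in shKSRP (0.05) changed sign to -0.0552 with a pseudocount of 5 and to -0.23 with no filter, and was 0.13 at 5 FPKM or more and 0.14 against genes of 10 FPKM or more. In DM + BMP2 (-0.15) it was -0.35 with no filter and -0.0693 against genes of 10 FPKM or more. In shKSRP against DM + BMP2 (0.18) it was 0.0829 with no filter. The cause was not tested. Among called genes, on RefSeq transcripts Ndufa11 turned to -1.41, Ndufa13 to -0.56, Ndufaf2 to 0.14 and, in DM + BMP2, Ndufaf6 to 0.36. Ndufa11 turned to -0.18 over the fixed gene length, and in shKSRP against DM + BMP2 to -0.93 on RefSeq transcripts. These turns follow from the weight of assembled transcripts in the gene sum.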
